A study of Rattus norvegicus with 18 samples.

Results

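Gfap and Mbp, marker genes of the main glial cell types of the brain, were followed across the dorsal hippocampus (dHC) and the prelimbic cortex (PL) of rats that stayed in the home cage or were trained in inhibitory avoidance. Both were taken by their Ensembl gene IDs, ENSRNOG00000002919 for Gfap and ENSRNOG00000016516 for Mbp, a rule that uses no measured value. Earlier results of these data were known when they were chosen. The 2 genes were among 32662 gene rows of the count tables, and both passed the filter on low counts together with 14784 genes in all. The animals were adult Long-Evans rats with no genetic change named in the labels. They were naive (untrained, home cage), trained and killed 1 h later, or trained and killed 6 d later. Inhibitory avoidance is a task in which a rat learns from a foot shock to stay out of a place. Each of the 6 groups held 3 libraries, and each library held RNA of 5 rats combined after extraction from tissue punches, so the spread between libraries is a spread between pools and not between single rats. Punches sample a mixture of neurons, glia and vessel cells, and no cell type was sorted.

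Gfap encodes glial fibrillary acidic protein, the intermediate filament of astrocytes, which support synapses, take up transmitter and surround blood vessels. Its transcript is known to be more abundant in hippocampal than in cortical grey matter astrocytes and to rise in reactive astrocytes. Mbp encodes myelin basic protein, which compacts the myelin membrane that oligodendrocytes wrap around axons, and its transcript is carried out into the myelin processes. The longer Golli transcripts of the same gene start further upstream and are also made outside myelin. White matter is rich in Mbp, so the amount of fibre tract in a punch is among the things that can move its level.

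The count tables give a single value per gene, which adds the reads of all transcripts of that gene. RefSeq's annotation of the newer rat assembly GRCr8, matched by symbol, listed 1 transcript for Gfap, on chromosome 10, and 15 for Mbp, on chromosome 18. The 3 annotated start windows of these transcripts are shown. Which of these starts the gene models used for counting held is not given. Each runs 5′ to 3′ on the gene's strand over 250 bases before the start and 50 bases from it on, with the bases from the start on in capitals. The Gfap window lies at chr10:88361612-88361911 on the minus strand, and the Mbp windows at chr18:78130402-78130701 and chr18:78209995-78210294 on the plus strand.
Gfap: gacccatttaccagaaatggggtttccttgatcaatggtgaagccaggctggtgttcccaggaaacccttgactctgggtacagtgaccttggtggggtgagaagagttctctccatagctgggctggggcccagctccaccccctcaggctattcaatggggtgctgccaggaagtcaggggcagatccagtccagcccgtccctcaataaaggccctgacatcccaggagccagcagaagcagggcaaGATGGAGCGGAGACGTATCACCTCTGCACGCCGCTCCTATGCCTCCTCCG
Mbp, upstream start: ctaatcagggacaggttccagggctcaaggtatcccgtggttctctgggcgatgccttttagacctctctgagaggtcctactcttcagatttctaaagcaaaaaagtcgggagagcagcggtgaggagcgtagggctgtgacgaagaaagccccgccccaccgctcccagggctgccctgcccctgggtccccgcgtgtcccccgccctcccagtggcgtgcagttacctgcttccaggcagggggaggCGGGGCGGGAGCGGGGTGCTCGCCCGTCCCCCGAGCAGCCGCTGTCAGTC
Mbp, inner start: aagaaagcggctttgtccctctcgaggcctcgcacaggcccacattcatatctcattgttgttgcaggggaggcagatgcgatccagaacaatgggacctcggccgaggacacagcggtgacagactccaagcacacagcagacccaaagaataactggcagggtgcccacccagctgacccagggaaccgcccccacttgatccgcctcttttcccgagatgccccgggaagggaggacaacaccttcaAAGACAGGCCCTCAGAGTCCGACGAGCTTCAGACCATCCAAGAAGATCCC
The upstream Mbp window held 65.0% G and C and 19 CG pairs, the inner Mbp window 58.3% and 13 CG pairs, and the Gfap window 58.7% and 6 CG pairs. Over 33469 such windows of the rat genome the medians were 51.7% and 7 CG pairs. The letters TATAAA were in none of the 3 windows on either strand, and in 14.2% of all windows. These are descriptions of the letters in a window. The counts do not say from which start the Mbp reads came.

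Gene counts per library summed to between 7463875 and 9215695. Gfap had 8202 to 12384 counts in dHC libraries and 1111 to 2067 in PL libraries. Mbp had 30667 to 51894 counts in dHC and 9485 to 24132 in PL. Counting error alone therefore gave a coefficient of variation (CV, the SD as a percentage of the mean) of at most 3.00% for Gfap and 1.03% for Mbp in any library, which covers counting error only. Levels are given as CPM (gene counts relative to the library's total gene count) scaled with TMM factors, which correct for differences in composition between libraries and ran from 0.978 to 1.028. CPM is not corrected for gene length, so the levels of Gfap and Mbp are not compared with each other. Changes were tested with edgeR's quasi-likelihood F test over all genes with Benjamini-Hochberg adjustment, and a gene is called at an adjusted p under 0.05.

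Both glial genes were higher in dHC than in PL at every time, and the difference was larger for Gfap. In naive rats, Gfap stood at 1082, 1196 and 1185 CPM in the dHC pools, against 159, 229 and 192 CPM in the PL pools. The lowest dHC pool was thus several times above the highest PL pool. The means were 1154 ± 62.6 CPM in naive dHC and 193 ± 35.1 CPM in naive PL (SD, n = 3 each), a 5.91-fold difference with a 95% interval of 5.03 to 6.93 (log2 fold change 2.56, SE 0.11, edgeR adjusted p = 1.14e-16). This log2 difference was above that of 99.0% of the 14784 genes tested. Of all genes tested, 22.9% were called higher in naive dHC, and 28.2% had every naive dHC library above every naive PL library.

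Mbp showed the same direction with a smaller difference. Its level was 3565, 4291 and 4063 CPM in naive dHC pools, against 2053, 2673 and 1390 CPM in naive PL pools. The groups did not overlap, but the lowest and highest PL pools were farther apart than the highest PL pool and the lowest dHC pool. The means were 3973 ± 371 CPM in naive dHC and 2039 ± 641 CPM in naive PL (SD, n = 3 each), a 1.93-fold difference with a 95% interval of 1.51 to 2.45 (log2 fold change 0.95, SE 0.17, edgeR adjusted p = 4.00e-05). Mbp lay above 93.0% of the genes tested in this difference. In bulk tissue, fewer cells of a type and less RNA per cell cannot be told apart, and this holds for every difference given here.

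**Figure D1:**
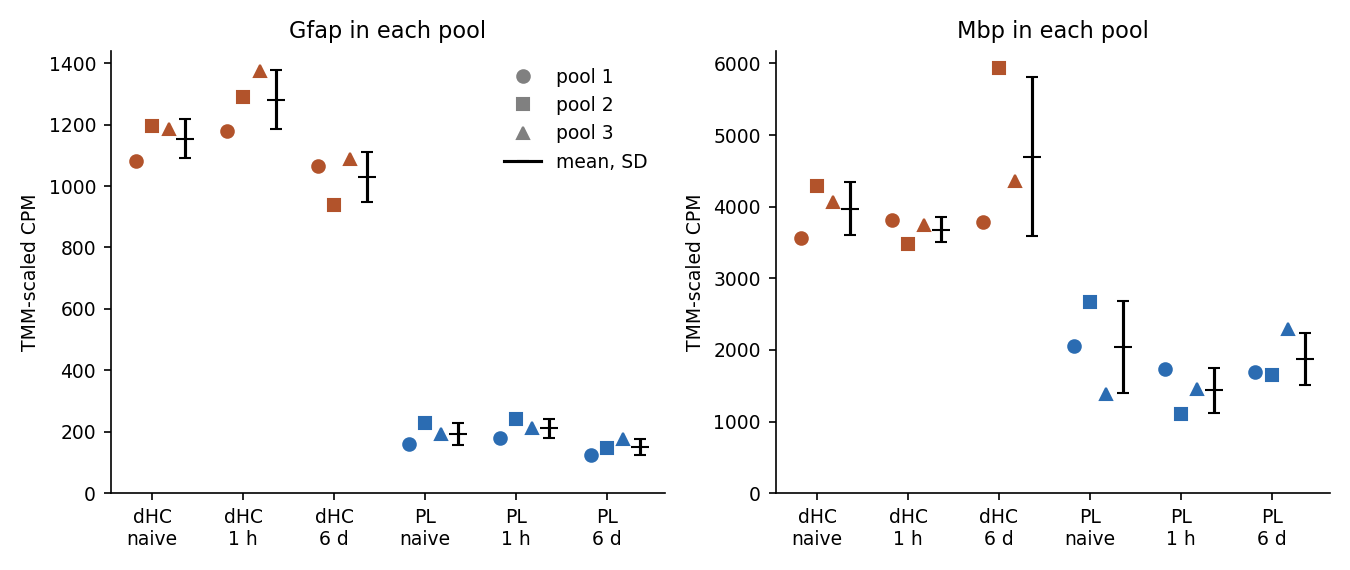
Level of Gfap (left) and Mbp (right) in each pool, in TMM-scaled CPM, for dHC (orange) and PL (blue) pools of naive rats and rats killed 1 h or 6 d after training; symbols mark the pool number and black bars the mean and SD of 3 pools. Every dHC pool lies above every PL pool for both genes, and the PL pools of Mbp run from 1110 to 2673 CPM.

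The regional difference was present in trained rats too. At 1 h, Gfap was 6.05-fold higher in dHC than in PL (95% interval 5.15 to 7.10, edgeR adjusted p = 9.79e-17), where 23.9% of genes were called higher in dHC and 29.1% had no overlap in that direction. Mbp was 2.55-fold higher at 1 h (95% interval 2.00 to 3.26, edgeR adjusted p = 2.09e-07). At 6 d, Gfap was 6.84-fold higher in dHC (95% interval 5.81 to 8.05, edgeR adjusted p = 3.38e-17), where 23.0% of genes were called higher in dHC and 26.0% had no overlap in that direction. Mbp was 2.49-fold higher at 6 d (95% interval 1.95 to 3.18, edgeR adjusted p = 3.18e-07). All 9 dHC pools, at 938 to 1374 CPM for Gfap, lay above all 9 PL pools, at 123 to 240 CPM. For Mbp the 9 dHC pools lay at 3476 to 5936 CPM and the 9 PL pools at 1110 to 2673 CPM. The 6 regional calls were kept in all 25 alternative fits of each that keep a filter on low counts, with log2 differences of 2.45 to 2.92 for Gfap and 0.74 to 1.52 for Mbp.

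Between times the differences were smaller, and the calls among them were a lower Gfap level at 6 d than at 1 h in dHC and in PL. In dHC, Gfap stood at 1064, 938 and 1089 CPM at 6 d, against 1181, 1289 and 1374 CPM at 1 h. Every 6 d pool was below every 1 h pool, as for 9.49% of genes in this direction. The mean of 1031 ± 81.1 CPM at 6 d was set against 1281 ± 96.6 CPM at 1 h (SD, n = 3 each), and Gfap fell by 0.31 on the log2 scale (SE 0.06, 95% interval −0.44 to −0.18, edgeR adjusted p = 0.0203), where 0.699% of genes were called lower. Of 17 alternatives that keep a filter on low counts, 14 kept the call, and the adjusted p of the 17 ran between 0.00137 and 0.174. With edgeR it was lost without 1 h pool 3 (adjusted p = 0.174), without 6 d pool 2 (adjusted p = 0.0949) and with all 18 libraries in the fit (adjusted p = 0.139).

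In PL, Gfap stood at 123, 149 and 178 CPM at 6 d, against 180, 240 and 212 CPM at 1 h. Again no 6 d pool reached the lowest 1 h pool, though 6 d pool 3 and 1 h pool 1 were almost level, and 10.6% of genes had no overlap in this direction. The means were 150 ± 27.2 CPM at 6 d and 211 ± 29.7 CPM at 1 h (SD, n = 3 each), and Gfap fell by 0.49 on the log2 scale (SE 0.12, 95% interval −0.74 to −0.24, edgeR adjusted p = 0.0325), where 1.05% of genes were called lower. Of 17 such alternatives, 12 kept the call, and the adjusted p of the 17 ran between 0.000369 and 0.224. It was lost with DESeq2 (adjusted p = 0.224) and with edgeR without 1 h pool 2 (adjusted p = 0.193), 1 h pool 3 (adjusted p = 0.107), 6 d pool 1 (adjusted p = 0.0767) or 6 d pool 2 (adjusted p = 0.0734). The change at 6 d against 1 h gave a difference dHC minus PL of 0.18 on the log2 scale (95% interval −0.14 to 0.49, edgeR adjusted p = 0.822), which did not pass in a test added after the values were seen, where 0.264% of genes passed. It was 0.061 without PL 6 d pool 1, 0.074 without PL 1 h pool 2 and 0.32 without PL 6 d pool 3.

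Measures of the libraries moved beside this fall. PL pools at 6 d had 12.2% to 13.6% of reads outside gene models, against 10.5% to 12.1% at 1 h. The dHC pools at 6 d held 7921311 to 8806419 gene counts, against 8914752 to 9136114 at 1 h. With the share of reads outside gene models as a covariate, the log2 change of Gfap at 6 d against 1 h was −0.32 in dHC (edgeR adjusted p = 0.00808) and −0.62 in PL (edgeR adjusted p = 0.0280). In PL the shares at 6 d and 1 h did not overlap, so share and time cannot be told apart there, with or without the covariate. The part of depth in the fall was not tested.

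Against naive rats, Gfap was not called at either time. In dHC its log2 change was 0.15 at 1 h (95% interval 0.02 to 0.28, unadjusted p = 0.0264 and edgeR adjusted p = 0.392), with 1 of the 1 h pools, at 1181 CPM, inside the naive range of 1082 to 1196 CPM. At 6 d it was −0.16 (95% interval −0.29 to −0.03, unadjusted p = 0.0220 and edgeR adjusted p = 0.833), with 1 of the 6 d pools, at 1089 CPM, inside the naive range. In PL the log2 change was 0.12 at 1 h (95% interval −0.12 to 0.37, edgeR adjusted p = 0.664) and −0.36 at 6 d (95% interval −0.61 to −0.11, unadjusted p = 0.00645 and edgeR adjusted p = 0.999). The mean naive level thus lay between those at 1 h and 6 d in both regions. These comparisons share libraries with one another and with that of 6 d against 1 h, so their directions are not independent.

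Over all genes, edgeR called 0.224% at 1 h in dHC and 1.44% at 1 h in PL. At 6 d against naive edgeR called 0 genes in either region, with 804 genes in dHC and 497 in PL at an unadjusted p under 0.05. At 6 d, limma voom also had 0 calls in both regions, while DESeq2 had 0 in PL and 1 in dHC. The difference dHC minus PL in the change at 6 d against naive was 0.21 for Gfap (95% interval −0.10 to 0.53) and 0.37 for Mbp (95% interval −0.12 to 0.86), and edgeR passed 0 genes in that test, with 558 at an unadjusted p under 0.05. With 1 library left out it ran between 0.066 (without PL naive pool 2) and 0.35 (without PL 6 d pool 3) for Gfap, and between 0.12 (without PL naive pool 2) and 0.58 (without PL naive pool 3) for Mbp.

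**Figure D2:**
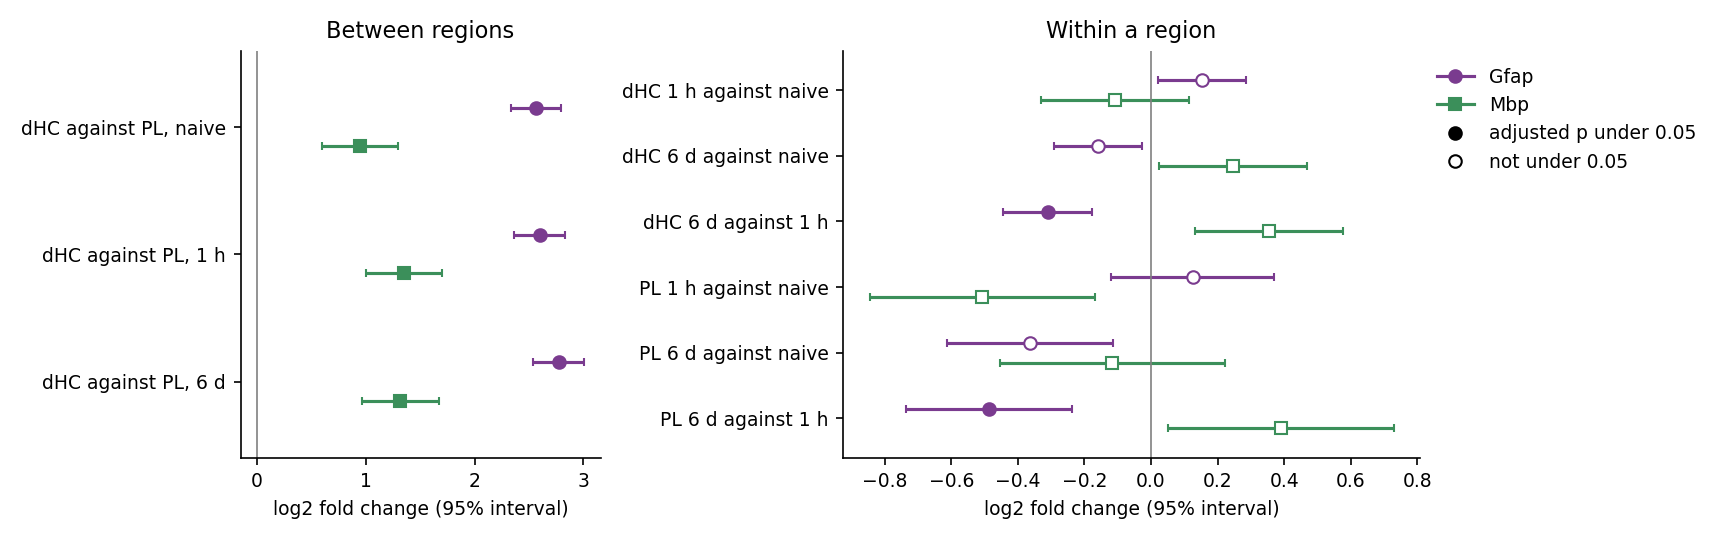
Log2 fold changes of Gfap (purple circles) and Mbp (green squares) between dHC and PL (left) and between times within a region (right), with 95% intervals from edgeR; filled symbols mark an adjusted p under 0.05. All 6 regional differences are called, and within a region only the 2 values of Gfap at 6 d against 1 h, −0.31 in dHC and −0.49 in PL, are.

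Mbp was not called by edgeR in any comparison between times. At 1 h in PL it had 1740, 1110 and 1455 CPM, against 2053, 2673 and 1390 CPM in naive PL. The groups overlapped through naive pool 3, which was below 2 of the 1 h pools. The means were 1435 ± 315 CPM at 1 h and 2039 ± 641 CPM in naive PL (SD, n = 3 each), a log2 change of −0.51 (SE 0.16, 95% interval −0.85 to −0.17, unadjusted p = 0.00521 and edgeR adjusted p = 0.134). This value passed without naive pool 3, at −0.72 (edgeR adjusted p = 0.00402), and without 6 d pool 1, at −0.51 (edgeR adjusted p = 0.0380), and shrank to −0.26 without naive pool 2 (edgeR adjusted p = 0.489). Over the 17 alternatives with a filter its adjusted p ran between 0.00402 and 0.509, and 3 of them passed. In dHC, Mbp stood at 3818, 3476 and 3748 CPM at 1 h, with 2 of 3 pools within the naive range of 3565 to 4291 CPM, and a log2 change of −0.11 (95% interval −0.33 to 0.11, edgeR adjusted p = 0.780). The change at 1 h differed between the regions by 0.41, dHC minus PL (95% interval −0.09 to 0.90, edgeR adjusted p = 0.724), which did not pass. Of all genes, 0.0947% passed that test. The difference was 0.15 without PL naive pool 2, 0.25 without PL 1 h pool 2 and 0.62 without PL naive pool 3.

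At 6 d, the dHC pools of Mbp stood at 3788, 5936 and 4364 CPM. Pool 2 was the highest of all 18 libraries, and pool 1 lay below 1 h pool 1 and inside the naive range. The mean was 4696 ± 1111 CPM at 6 d (SD, n = 3), and the log2 change was 0.25 against naive dHC (95% interval 0.02 to 0.47, edgeR adjusted p = 0.854) and 0.35 against dHC at 1 h (95% interval 0.13 to 0.58, unadjusted p = 0.00344 and edgeR adjusted p = 0.116). Without 6 d pool 2 the change against naive dHC was 0.04, and that against dHC at 1 h was 0.15. Without 6 d pool 1 the change against dHC at 1 h was 0.48 and passed (edgeR adjusted p = 0.0192), in a range of adjusted p between 0.0192 and 0.468 over 17 alternatives with a filter, of which 3 passed. In PL, the 6 d pools stood at 1688, 1647 and 2290 CPM, a mean of 1875 ± 360 CPM (SD, n = 3), and overlapped both the naive and the 1 h pools. The log2 change was −0.12 against naive PL (95% interval −0.45 to 0.22, edgeR adjusted p = 0.999) and 0.39 against PL at 1 h (95% interval 0.05 to 0.73, unadjusted p = 0.0257 and edgeR adjusted p = 0.236).

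Ordered by mean, Gfap ran from 1281 CPM in dHC at 1 h through 1154 CPM in naive dHC and 1031 CPM in dHC at 6 d to 211 CPM in PL at 1 h, 193 CPM in naive PL and 150 CPM in PL at 6 d. Mbp ran from 4696 CPM in dHC at 6 d through 3973 CPM in naive dHC and 3681 CPM in dHC at 1 h to 2039 CPM in naive PL, 1875 CPM in PL at 6 d and 1435 CPM in PL at 1 h. In both orders only the step from dHC to PL separated neighbours without overlapping pools, and neighbours within a region overlapped. Within each region, the 1 h group had the highest mean of Gfap and the lowest mean of Mbp.

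Pool-to-pool variation of Mbp was above that of most genes near its level, and it was wider in PL than in dHC for both genes, except that Mbp at 6 d varied more in dHC. The CV of Mbp over 3 pools was 31.5% in naive PL, 22.0% in PL at 1 h and 19.2% in PL at 6 d. In dHC it was 9.34% in naive pools, 4.91% at 1 h and 23.7% at 6 d. The 500 genes nearest to Mbp in level had a median CV of 3.25% to 5.56% in these groups. Mbp was above 99.4% or more of those genes in each PL group, and above 96.0% in naive dHC, 71.8% in dHC at 1 h and 100% in dHC at 6 d. For Gfap the CV was 18.1% in naive PL, 14.1% in PL at 1 h and 18.2% in PL at 6 d, against 5.42%, 7.54% and 7.86% in the same groups of dHC. Gfap was above 99.2% or more of its 500 nearest genes in each PL group, and above 74.2% in naive dHC, 94.2% in dHC at 1 h and 76.0% in dHC at 6 d. The CV from counting error alone was at most 2.80% in any group. These values rest on 3 pools each, and most shrink by more than 1.5 times without 1 of them. For Gfap in dHC the CV was 0.669% without naive pool 1, 4.48% without 1 h pool 1 and 1.63% without 6 d pool 2, and in PL it was 8.71% without 1 h pool 1. For Mbp it was 3.85% without dHC naive pool 1, 1.31% without dHC 1 h pool 2, 18.6% without PL naive pool 3 and 12.6% without PL 1 h pool 2.

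The largest gap inside a group was that of Mbp in naive PL, where the highest pool held 1.92 times the level of the lowest. Over all 9 pools of a region, the highest level was 2.41 times the lowest for Mbp in PL, 1.94 times for Gfap in PL, 1.71 times for Mbp in dHC and 1.46 times for Gfap in dHC. In dHC the spread of Mbp rested mainly on 6 d pool 2, since the 6 d CV was 9.99% without it. In PL at 6 d the CV of Mbp was 1.73% without pool 3.

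edgeR's biological coefficient of variation (BCV), which removes counting error and borrows strength from other genes, gave the same order. It was 14.2% for Mbp and 10.2% for Gfap in PL, and 9.56% for Mbp and 5.96% for Gfap in dHC. The 500 genes nearest in level had median values of 5.38% for Mbp and 5.32% for Gfap in PL, and 5.04% and 5.03% in dHC. Mbp exceeded 100% of those genes in PL and 99.6% in dHC, and Gfap exceeded 99.8% in PL and 86.2% in dHC. Without dHC 6 d pool 2, the value of Mbp in dHC was 5.96%, above 93.4% of its nearest genes. Few genes are as abundant as Mbp, so the 500 genes nearest to it in naive dHC reached down to 324 CPM. Those nearest to Gfap in naive dHC spanned the same 324 to 4000 CPM. At 6 d in dHC, where Mbp had a mean of 4696 CPM, the genes nearest to it reached no higher than 3938 CPM.

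**Figure D3:**
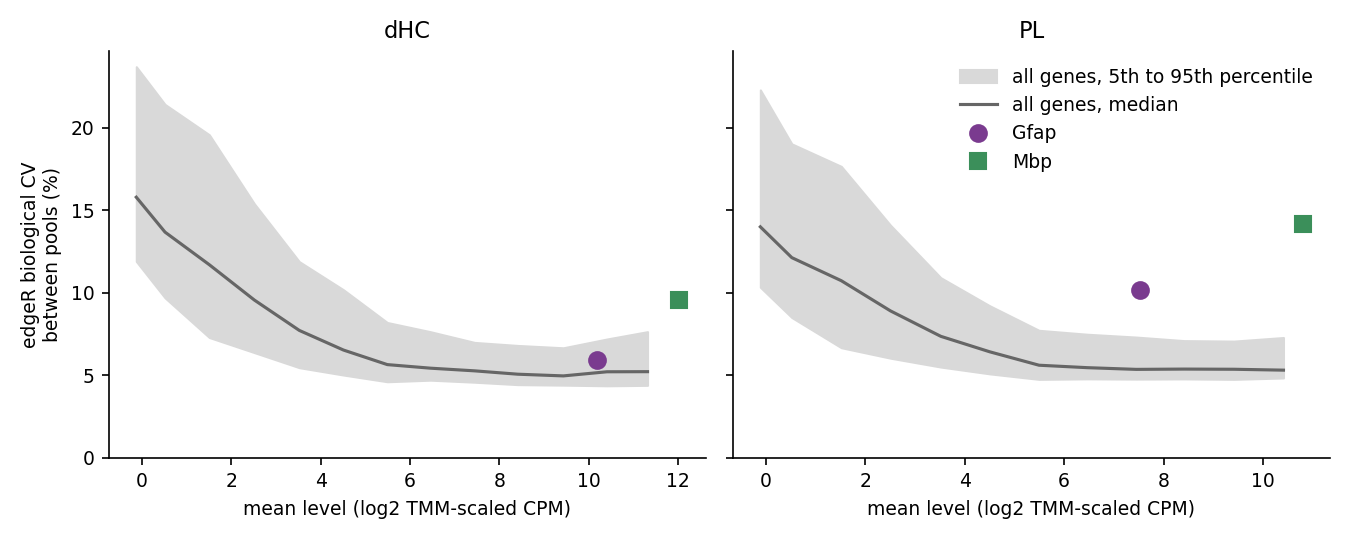
Biological coefficient of variation between pools (vertical axis, %) against mean level (horizontal axis, log2 TMM-scaled CPM) in dHC and PL; the grey band and line give the 5th to 95th percentile and the median of all genes tested, in steps of level holding at least 20 genes, and stop short of the most abundant genes. Gfap lies inside the band in dHC at 5.96% and above it in PL at 10.2%, and Mbp lies to the right of where the band ends and above its last values, at 9.56% in dHC and 14.2% in PL.

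No correlation between the levels of Gfap and Mbp over pools passed the test. Over the 9 dHC pools the correlation of Gfap with Mbp was −0.68 (Pearson's r on log2 CPM, exact permutation p = 0.0610, adjusted p = 0.122 over the 2 regions) and Spearman's rho was −0.42 (exact permutation p = 0.270, adjusted p = 0.521, two-sided). Without the 2 pools farthest from the median of Gfap, r was −0.20 (exact permutation p = 0.665), over a narrower range of Gfap. For deviations from group means, r in dHC was −0.40 (exact permutation p = 0.491). Over the 9 PL pools, r was −0.16 (exact permutation p = 0.688, adjusted p = 0.688) and rho was −0.25 (exact permutation p = 0.521, adjusted p = 0.521). Without the 2 farthest PL pools, r was 0.17 (exact permutation p = 0.700). The PL pool with the most Mbp, naive pool 2 at 2673 CPM, also had the second highest Gfap at 229 CPM. The PL pool with the least Mbp, 1 h pool 2 at 1110 CPM, had the highest Gfap at 240 CPM. In dHC, 6 d pool 2 joined the highest Mbp of 5936 CPM with the lowest Gfap of 938 CPM.

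**Figure D4:**
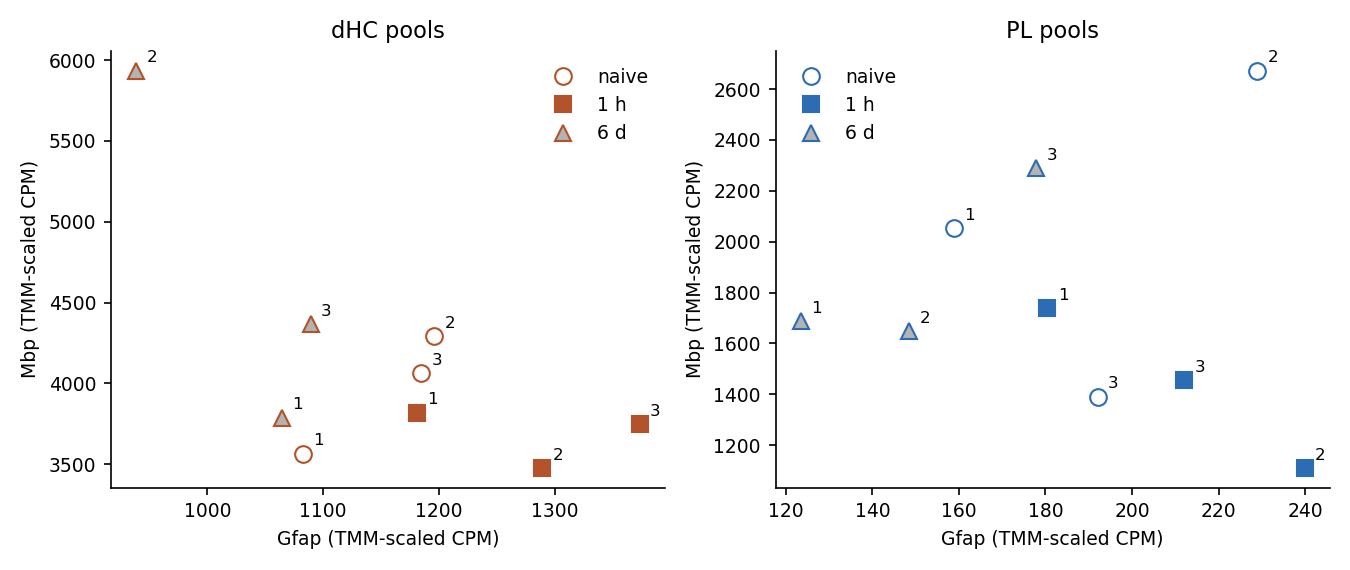
Mbp against Gfap in each pool of dHC (left) and PL (right), both in TMM-scaled CPM on axes that do not start at 0, with circles for naive, squares for 1 h and triangles for 6 d and the pool number beside each point. In dHC, 6 d pool 2 stands apart at 938 CPM of Gfap and 5936 CPM of Mbp, and in PL the highest and lowest Mbp pools, at 2673 and 1110 CPM, are the pools with the most Gfap.

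Genes with a mean of at least 1 CPM in a region and counts in each of its libraries were compared. Those that followed the same pool-to-pool pattern were sought by the correlation of log2 CPM deviations from group means over a region's 9 libraries. These correlations are descriptions that share library and scaling, and the names of the IDs are not paired with them in the files. The gene most like Mbp in PL was ENSRNOG00000012906, with r = 0.99 there and 0.98 in dHC, the region not used to choose it. Its level ran from 55.4 to 103 CPM in PL and from 156 to 238 CPM in dHC. In dHC its highest pool was 6 d pool 2, as for Mbp. Its highest PL pool, naive pool 2, was also that of Mbp, which is no separate finding because r in PL chose the gene. The gene most like Mbp in dHC, ENSRNOG00000019484, had r = 0.98 there and 0.64 in PL. The genes most like Gfap, ENSRNOG00000023520 in dHC (r = 0.97) and ENSRNOG00000015278 in PL (r = 0.98), had r of −0.06 and 0.10 in the other region.

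An r of at least 0.9 with Mbp was reached by 120 of 13808 genes in dHC and by 59 in PL. The lists shared 8 genes, or 6.67% of the dHC list and 13.6% of the PL list, where 0.427% of all genes were in the PL list and 0.869% in the dHC list. For Gfap, 44 genes reached this r in dHC and 54 in PL. The lists of Gfap shared 1 gene, or 2.27% of the dHC list and 1.85% of the PL list, where 0.391% of all genes were in the PL list and 0.319% in the dHC list. The share of genes that reaches this r by chance was not worked out, so the counts are not read as genes that share a pattern. Over 8 libraries an r of 0.9 is reached more easily. Drawn from the 14221 genes compared in dHC or 14193 in PL, the lists of 9 libraries held 120 and 59 genes for Mbp and 45 and 55 for Gfap. With any 1 pool left out of these sets, every list was longer. The Mbp list then held 157 (without dHC 6 d pool 1) to 319 genes (without dHC 6 d pool 3) in dHC and 94 (without PL naive pool 2) to 238 (without PL 6 d pool 1) in PL. The Gfap list held 78 (without dHC 6 d pool 3) to 132 genes (without dHC naive pool 2) in dHC and 72 (without PL 6 d pool 1) to 188 (without PL naive pool 2) in PL. The make-up of the punches in other cell types was not measured, since no other ID is paired with a gene name, and for the same reason the labelled regions were not checked against their markers.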

How the data were processed

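Polyadenylated RNA of 18 pools was sequenced, per the labels' protocols, from stranded libraries made with 200 ng of total RNA and 12 PCR cycles, read in pairs of 150 nt. The authors deposited whole-number read counts per Ensembl gene, 1 table per library, not normalized. The submitters' processing notes list DESeq2, bedtools 2.17.0, Picard 1.126 and the build Rnor_6.0, without saying what each did. The sources used here do not give the aligner, counter, annotation release or strand setting, so reads overlapping an antisense gene could not be told apart. Reads that no gene received, 63.3% to 68.3% of all reads, were left out. The reference table matched 0 of 32662 IDs, so the marker lists could not be applied and only Gfap and Mbp carry names. They and all lists were chosen with earlier results of these data known.

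Replicate libraries were further apart than counting noise in each of 18 pairs (chi-square per degree of freedom 1.69 to 5.27). Tests used R 4.3.3 and edgeR 4.0.16 (glmQLFit and glmQLFTest, two-sided; TMM; filterByExpr by group; Benjamini-Hochberg over all genes of a comparison). Comparisons within a region used its 9 libraries, others all 18. SEs were derived from the F statistic. Alternatives were DESeq2 1.42.0, limma 3.58.1 (voom), no filter, other scalings, a covariate, a replicate block, other sample sets and each library left out. Fits were tested on simulated counts that gave every gene the same spread, below that of Mbp in PL. How the fits behave for genes as variable as Mbp in PL was not tested. Correlations used exact permutations in scipy 1.17.1. The most alike gene per member and region was named by its correlation.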

Additional observations from a re-analysis of the deposited data

How the results depend on the processing

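Without a filter on low counts, edgeR gave all genes 1 common spread (129486 to 274932 degrees of freedom, against 19 to 26.3 with the filter), so its p-values are not read as calls. Its log2 values were −0.37 for Gfap at 6 d against naive in PL. For Mbp they were −0.50 at 1 h against naive in PL, 0.38 at 6 d against 1 h in PL, 0.35 in dHC, and 0.25 at 6 d against naive in dHC. The difference dHC minus PL in the change of Mbp against naive was 0.40 at 1 h and 0.36 at 6 d. Gfap at 6 d against 1 h was −0.49 with DESeq2 in PL and −0.31 with all 18 libraries in dHC, neither passing. Mbp at 1 h against naive in PL passed with only the groups compared (−0.51, adjusted p = 0.0272). Mbp at 6 d against naive in PL was 0.079 with the no-feature covariate, and at 6 d against 1 h in dHC it passed with that covariate (0.37, adjusted p = 0.0465) and with the replicate block (0.33, adjusted p = 0.0210). The cause of these other moves was not tested.

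Same-numbered pools of 2 groups correlated in their deviations over genes at −0.172 to 0.228, and no pair of groups had all 3 values over 0.1, so the numbers were not read as pairs. Compared at equal time, dHC and PL gave −0.033 to 0.023 in naive rats and −0.17 to 0.00037 at 6 d. At 1 h they gave 0.017 to 0.051, and there each dHC pool was closest to the PL pool of its number. That held for 1 dHC pool in naive rats and 0 at 6 d. The regional tests treated all libraries as independent. The block changed no other call of Gfap or Mbp, and with it 549 genes were called in dHC at 6 d against 1 h.

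With each library left out in turn, values ran from −0.63 to −0.36 (Gfap, PL, 6 d against 1 h), −0.37 to −0.25 (Gfap, dHC, 6 d against 1 h) and −0.00150 to 0.26 (Gfap, PL, 1 h against naive). For Mbp they ran from −0.72 to −0.26 (PL, 1 h against naive), −0.33 to 0.13 (PL, 6 d against naive) and 0.15 to 0.48 (dHC, 6 d against 1 h). The difference dHC minus PL in the change at 1 h against naive ran from −0.12 to 0.15 for Gfap and 0.15 to 0.62 for Mbp. That in the change at 6 d against 1 h ran from −0.24 to 0.13 for Mbp. The correlation of Gfap and Mbp was −0.76 in dHC with CPM per library total (exact permutation p = 0.0338, not adjusted), and in PL 0.17 without the farthest pools and 0.15 for deviations from group means.

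Called genes over the whole table were 32 by edgeR and 14 to 150 over alternatives with a filter (dHC, 1 h), 206 and 87 to 574 (PL, 1 h), 158 and 18 to 549 (dHC, 6 d against 1 h), 317 and 149 to 423 (PL, 6 d against 1 h), 0 and 0 to 3 (dHC, 6 d against naive), and 0 and 0 to 1 (PL, 6 d against naive). For the difference dHC minus PL in a change, they were 14 and 6 to 27 (1 h against naive), 0 throughout (6 d against naive) and 39 and 12 to 57 (6 d against 1 h).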
